A study of Mus musculus with 56 samples.

Results

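The data describe 34 macrophage genes in the livers of 56 male mice, out of 52230 genes summed from the deposited transcripts. The genes were chosen by name, with no measured value in the rule: 5 mark resident Kupffer cells, 7 mark lipid-associated macrophages, and 22 are expressed by macrophages and other myeloid cells in general. The mice came from a genome-edited B6N line (GCKR-P446L-EMI-B6N) in which Gckr, the gene of the glucokinase regulatory protein GKRP, encodes proline (P) or leucine (L) as amino acid 446 in every tissue. Without the glucokinase activator (GKA), the groups were PP (n = 10), PL (n = 8) and LL (n = 10), labelled as untreated. With GKA at 3 mg/kg, they were PP (n = 10), PL (n = 8) and LL (n = 10). Every group, controls included, was fed fat- and sugar-rich food (HFHSD) over 20 weeks, with 45% fat, 20% protein and 35% carbohydrate and with 10% glucose and 5% fructose in the drinking water, and no group on another diet was analysed here. The labels give no age. No comparison includes PP mouse 7, so that n = 9 for PP without GKA and 55 livers entered in all. The authors left that liver out too. Whole liver was measured, so that fewer macrophages and less RNA per macrophage cannot be told apart in any value below.

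Kupffer cells are the resident macrophages of the liver. They sit in the sinusoids and clear bacteria, complement-coated particles and damaged cells from portal blood. In fatty liver a share of them can be lost and replaced by macrophages that descend from blood monocytes. Some of these recruited cells gather around lipid-laden or dying hepatocytes, where they form crown-like structures and lipogranulomas and express a lipid-handling programme led by Trem2, Gpnmb, Spp1 and Cd9. The study scored lobular inflammation, lipogranulomas and fibrosis in liver sections, and the question here is how the macrophage genes vary by genotype and by GKA.

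All 34 genes were detected, at levels that spanned a wide range. On a scale that corrects for transcript length (TPM), the median level over the 55 livers was highest for Ctsd, the lysosomal protease cathepsin D, at 95.7 TPM. Clec4f, a Kupffer cell lectin that binds galactose-type sugars, followed at 43.2 TPM. C1qb, C1qa and C1qc, which encode the chains of complement C1q, were at 28.9, 26.8 and 22.1 TPM, with Lyz2 (lysozyme) at 27.5 TPM and Cd5l, a secreted scavenger-type protein of Kupffer cells, at 25.7 TPM. The lowest medians belonged to Cx3cr1, the fractalkine receptor of monocytes, at 0 TPM, Gpnmb at 0.0542 TPM, Itgax (CD11c) at 0.0792 TPM and Ccr2, the chemokine receptor that brings monocytes out of bone marrow, at 0.164 TPM. Resident genes were thus measured on more reads than most recruited-cell genes. Clec4f had a median of between 392 and 502 reads per liver by group, whereas Trem2 had between 3 and 7 reads and Gpnmb between 0 and 6 reads. Cx3cr1 had 0 reads in 31 of 55 livers and Gpnmb in 19. Total reads per mouse were between 5.19 and 8.09 mega reads. Of 15 monocyte and neutrophil genes 7 had a median of 0 reads, Elane and Mpo among them. Of 13 T and NK cell genes 7 did, Cd3d and Cd8a among them, and the others of both lists were detected. The liver identity of the samples was plain from the 11 hepatocyte genes. Their sum was between 87300 and 146400 normalised read counts (CPM, scaled to library size and comparable between livers but not between genes).

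The resident genes had group medians that lay close together. Clec4f (chromosome 6, 83621524 to 83633169, GRCm39) had a lowest, median and highest value of 44.9, 65.8 and 90.2 CPM in PP, of 26.8, 64.9 and 82.6 CPM in PL and of 46.4, 57.6 and 82.6 CPM in LL. With GKA the values were 40.4, 73.8 and 107.9 CPM in PP, 48.4, 64.8 and 121.4 CPM in PL, and 43.8, 64.1 and 98.2 CPM in LL. All 6 groups overlapped, and the lowest value (PL mouse 26) and the highest (PL with GKA mouse 29) belonged to single livers. Timd4, a receptor for phosphatidylserine on dying cells that marks Kupffer cells of embryonic origin, had medians of 3.64, 3.19 and 2.48 CPM in PP, PL and LL, within ranges of 1.46 to 6.81, 1.10 to 7.82 and 1.66 to 6.83 CPM. With GKA its medians were 3.76, 3.45 and 2.56 CPM, within ranges of 1.75 to 7.03, 3.01 to 12.1 and 1.27 to 6.00 CPM. The medians were lower in LL than in PP in both arms, by less than the range of either group. Marco, a scavenger receptor for bacteria, varied most of the 5, from 0.735 CPM in LL mouse 45 to 40.5 CPM in PL with GKA mouse 29 and 31.8 CPM in PL mouse 23. Cd5l had group medians between 68.2 and 92.1 CPM, and Vsig4, the complement receptor CRIg, between 14.3 and 17.0 CPM. No pair of groups was separated for any of the 5 genes.

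The lipid-associated genes were low in most livers and high in a few. Gpnmb, a lysosomal glycoprotein of lipid-laden macrophages (chromosome 6, 49013426 to 49047863), had a lowest, median and highest value of 0, 0.175 and 1.94 CPM in PP, of 0, 0.153 and 0.564 CPM in PL and of 0, 0.497 and 2.95 CPM in LL. With GKA the values were 0, 0.882 and 9.96 CPM in PP, 0, 0 and 3.19 CPM in PL, and 0, 0.70 and 11.6 CPM in LL. Each group contained livers without a Gpnmb read, and the highest values came from LL with GKA mouse 48 and PP with GKA mouse 14. Mmp12, a macrophage elastase, followed the same livers: its medians without GKA were 0.516, 0.589 and 1.35 CPM in PP, PL and LL, with maxima of 4.85, 3.08 and 6.89 CPM. With GKA its medians were 2.48, 0.432 and 2.15 CPM and its maxima 10.2 CPM (PP mouse 14), 6.39 CPM (PL mouse 29) and 15.0 CPM (LL mouse 48). Its exons overlap those of Mmp1b on the opposite strand. Trem2, a lipid-sensing receptor (chromosome 17, 48653429 to 48661175), had medians of 0.446, 0.60 and 1.09 CPM in PP, PL and LL, within ranges of 0.15 to 0.97, 0.167 to 1.47 and 0 to 2.44 CPM. With GKA the medians were 1.16, 0.535 and 1.09 CPM, within ranges of 0 to 2.91, 0 to 1.37 and 0.176 to 3.23 CPM. At 1 to 6 reads per liver in PP and 0 to 16 in LL, these Trem2 values carry a large counting error.

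**Figure D1:**
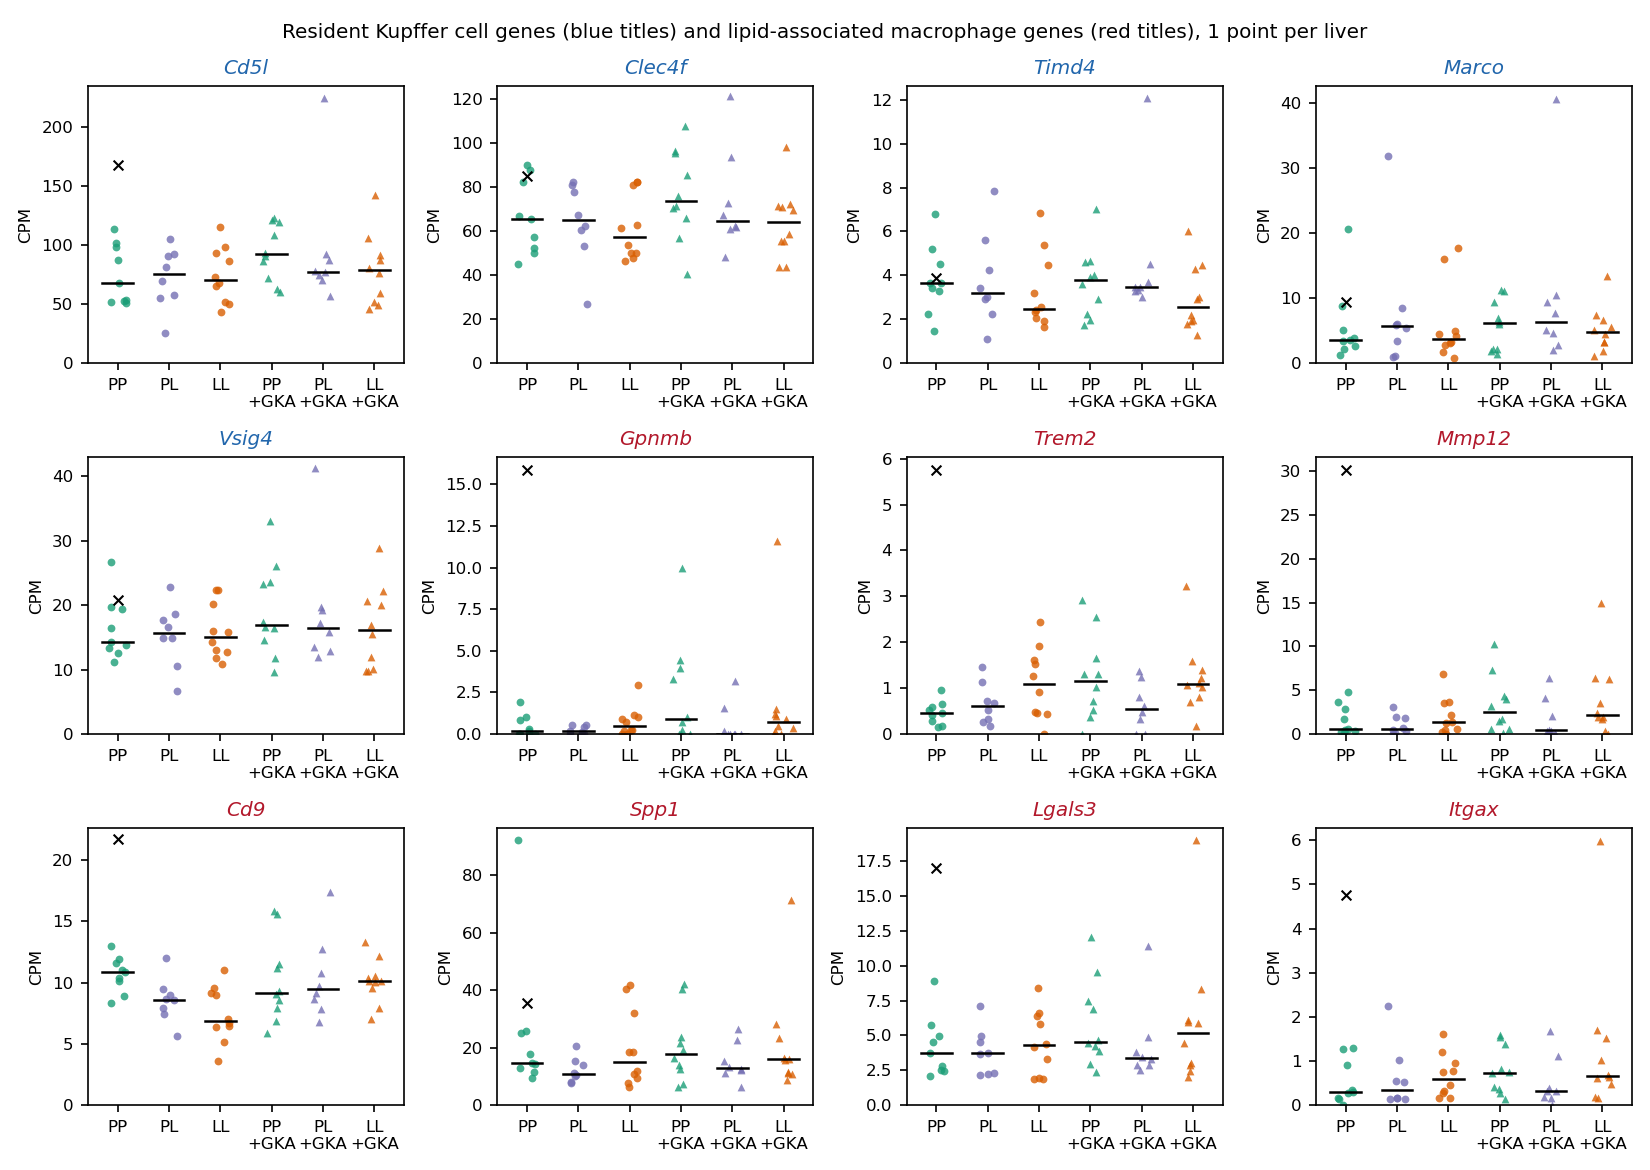
Normalised read counts (CPM, vertical axes from 0) of the 5 resident genes (blue titles) and the 7 lipid-associated genes (red titles) in the 6 groups, with 1 point per liver, circles without and triangles with GKA, a bar at the group median and a cross for PP mouse 7, which enters no median. Groups overlap in all 12 panels, and single livers stand above the rest, such as PL with GKA mouse 29 at 40.5 CPM for Marco and LL with GKA mouse 48 at 11.6 CPM for Gpnmb.

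Spp1, Lgals3, Itgax and Cd9 made up the rest of the lipid-associated genes. Spp1 encodes osteopontin, which bile duct cells also make, and had medians of 14.5, 10.8 and 15.0 CPM in PP, PL and LL and of 17.8, 13.0 and 15.9 CPM with GKA. Its highest value by far was 92.1 CPM in PP mouse 8, where the other 8 PP livers had 9.50 to 25.9 CPM. Summed expression of the 9 bile duct genes was 5.50 CPM in that liver, the rank of 2 among 55, against a median of 2.40 CPM. Lgals3 (galectin-3) had group medians between 3.40 and 5.17 CPM and Itgax between 0.297 and 0.736 CPM.

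Cd9 encodes a membrane tetraspanin that other liver cells also express, and had the smallest unadjusted p of all members by genotype. Its lowest, median and highest values were 8.31, 10.8 and 13.0 CPM in PP, 5.66, 8.62 and 12.0 CPM in PL and 3.56, 6.86 and 11.1 CPM in LL. With GKA they were 5.85, 9.18 and 15.9 CPM in PP, 6.78, 9.45 and 17.4 CPM in PL and 7.06, 10.2 and 13.3 CPM in LL. Without GKA the medians were highest in PP, then PL, then LL, with overlapping ranges, and with GKA the 3 ranges covered each other. On the TPM scale the means without GKA were 8.81 (SD 2.03) in PP, 6.37 (SD 2.48) in PL and 9.07 (SD 5.08) in LL. A lower mean in LL than in PP was thus not seen on that scale. TPM is scaled within each liver, and other genes moved between the scales too. C1qa had a mean CPM of 30.8 in both PP and LL but 26.9 and 35.5 TPM, whereas Clec4f had 48.5 and 39.0 TPM. The TPM values of Cd9 therefore cannot decide whether its level differed.

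To determine the effect of genotype, the groups were compared with the quasi-likelihood test of edgeR, with genes called at a Benjamini-Hochberg adjusted p below 0.05 over all genes tested and a ratio of 1.3 or more, or 0.7 or less. Of the 34 genes, 25 passed the filter on low counts for LL against PP without GKA. Too few reads kept out the others, Trem2, Gpnmb, Itgax, Ccr2 and Ccl2 among them. None of the genes that passed was called (0 of 25), where 0.0854% of all 10537 genes tested were, and 1 had an unadjusted p below 0.05, against 11.8% of all genes. That gene was Cd9, with a log2 fold change of -0.51 (SE 0.16, edgeR unadjusted p 0.00392, adjusted p 0.167). The median log2 fold change was -0.01 over the 25 genes and 0.01 over all genes, and was between -0.11 (without LL mouse 42) and 0.04 (without LL mouse 43) on leaving out single livers. For PL against PP the count called was 0 of 25 (0.151% of 10580 genes), and 2 had an unadjusted p below 0.05 (10.1% of all genes). These were Cd9 (-0.31, SE 0.12, adjusted p 0.393) and Spp1 (-1.01, SE 0.40, adjusted p 0.387). Without PP mouse 8 the Spp1 value was -0.42, with an edgeR unadjusted p of 0.0846. For LL against PL the count called was 0 of 25 (0.00942% of 10616 genes), with 0 at an unadjusted p below 0.05 (4.58% of all genes). The medians of the genes tested were -0.05 for PL against PP and 0.04 for LL against PL. Once a covariate for the clock genes was added, they were 0.10, with 17 of 25 values above 0 in place of 5, and -0.01, and that for LL against PP without GKA was 0.23.

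The comparisons by genotype in the mice with GKA gave no call either. For LL against PP with GKA 0 of 26 genes were called (0.239% of 10460 genes), and 0 had an unadjusted p below 0.05 (10.4% of all genes). The median was -0.11, and 20 of the 26 values were negative, all 5 resident genes among them. This median was -0.26 without LL with GKA mouse 48 and -0.05 without LL with GKA mouse 47. Clec4f was at -0.26 (SE 0.16, adjusted p 0.644) and C1qc, with the smallest p, at -0.26 (SE 0.14, adjusted p 0.565). C1qc had a lowest, median and highest value of 25.8, 40.2 and 60.6 CPM in PP and of 24.2, 30.1 and 47.5 CPM in LL with GKA. Only PP with GKA mouse 16, at 60.6 CPM, lay above all LL livers with GKA. The next PP value was 43.5 CPM (mouse 20), and the ranges overlapped otherwise. For PL against PP with GKA 0 of 26 were called (0% of 10520 genes), and 0 had an unadjusted p below 0.05 (8.19% of all genes). For LL against PL with GKA 0 of 27 were called (0% of 10491 genes), and 1 had an unadjusted p below 0.05 (8.6% of all genes). That gene was Cd63, a tetraspanin of late endosomes, at 1.07 (SE 0.49, adjusted p 0.566), which was 0.54 (unadjusted p 0.173) without LL with GKA mouse 48 and 1.303 (unadjusted p 0.0207) without PL with GKA mouse 29. The median over the 27 genes was -0.05, and was -0.16 and 0.09 without these livers in turn. DESeq2 also called 0 members in each of these 6 comparisons, with 1, 2, 1, 0, 1 and 2 members at an unadjusted p below 0.05.

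Averaged over the arms with and without GKA, 32 of the 34 genes could be tested for LL against PP, all but Cx3cr1 and Ms4a7, a monocyte-derived macrophage gene. None was called (0 of 32), where 1.71% of 11477 genes were, and 1 had an unadjusted p below 0.05 by edgeR and by DESeq2, against 16.1% of all genes by edgeR. Cd9 was at -0.26 (SE 0.12, edgeR adjusted p 0.241). The share of macrophage genes past the unadjusted threshold was below that of all genes in this contrast. The resident genes had 5 of 5 values below 0 and a median of -0.13, from -0.05 (SE 0.39) for Marco to -0.25 (SE 0.22) for Timd4. With the clock covariate all 5 were above 0, from 0.0008 for Clec4f to 0.23 for Marco, so that their direction depended on it. The lipid-associated genes had 5 of 7 values above 0 and a median of 0.15, with Trem2 at 0.62 (SE 0.34, adjusted p 0.382) and Itgax at 0.55 (SE 0.41, adjusted p 0.571). Ccl2, the chemokine that draws monocytes, was at -0.50 (SE 0.32), with group medians of 1.04, 0.46 and 0.628 CPM in PP, PL and LL and of 1.05, 0.319 and 0.665 CPM with GKA. Over all genes tested the median was 0.00 and 51.0% of values were positive. No resident or lipid-associated gene apart from Cd9 reached an unadjusted p below 0.05. In the same contrast the sinusoidal endothelial genes had 11 of 13 values below 0 (median -0.11) and the stellate cell and matrix genes 12 of 14 (median -0.10). The 5 blood genes tested had a median of 0.64, with 4 at an unadjusted p below 0.05, and the 3 adipose genes tested were all above 0, with a median of 0.76. The part of these cell types in the macrophage values was not tested. The median over the 32 members was -0.07, was 0.01 with the clock covariate, and was between -0.13 and -0.02 without single livers (LL with GKA mouse 48 and PP mouse 9).

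**Figure D2:**
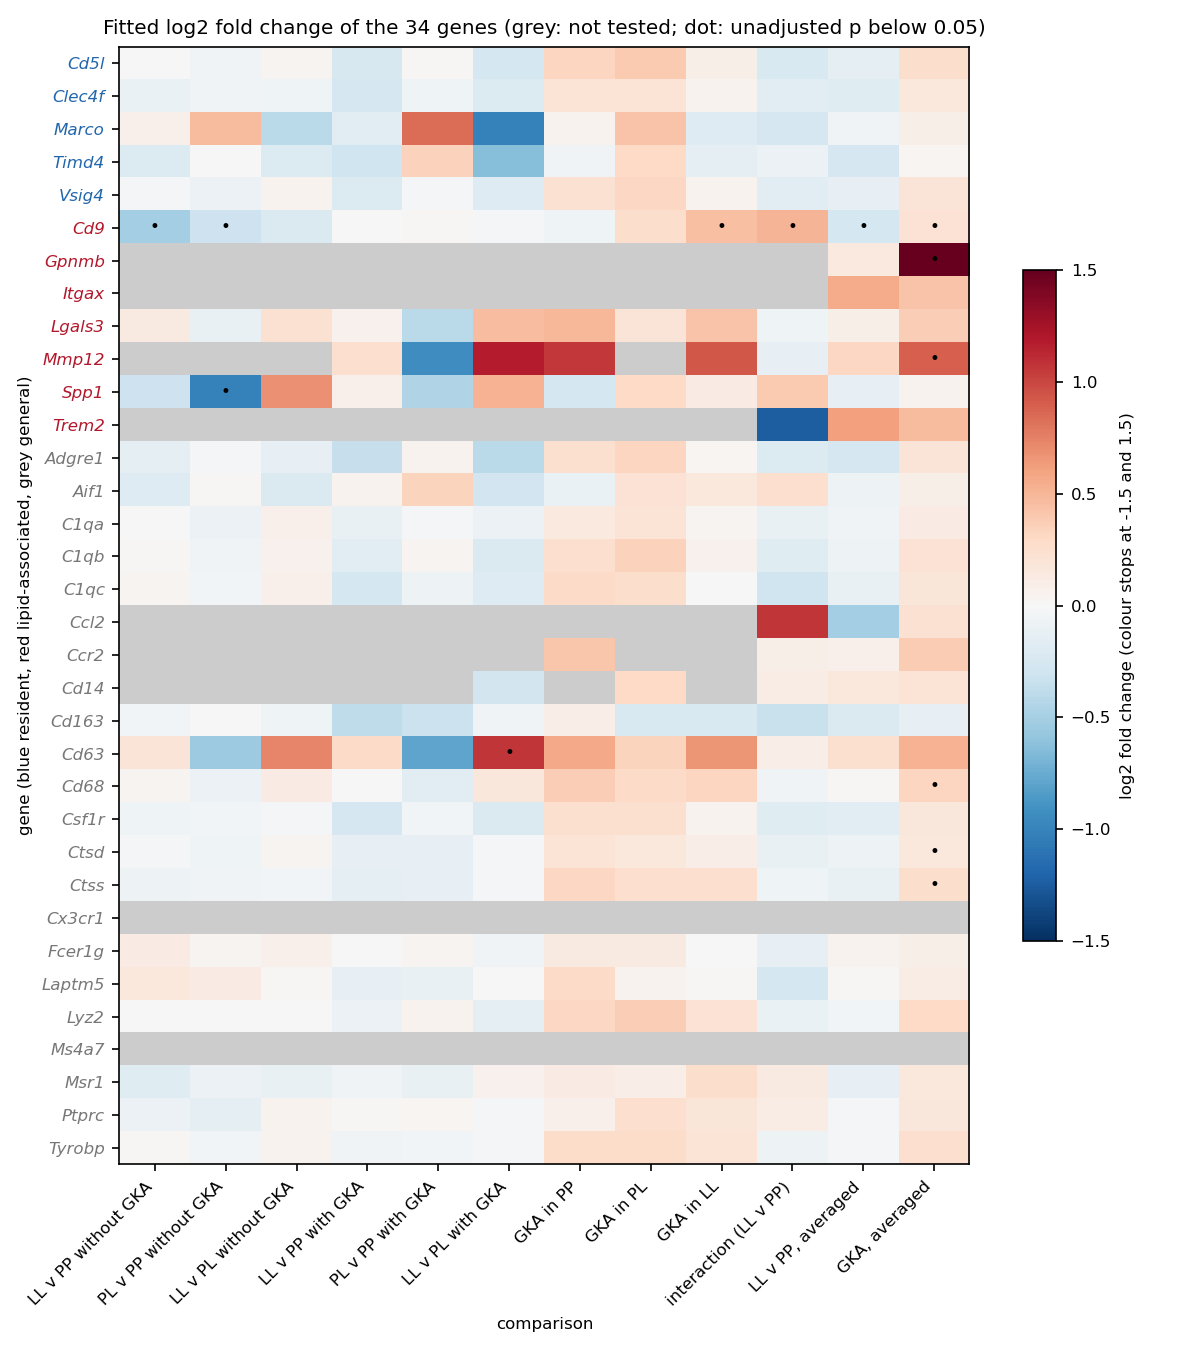
Fitted log2 fold change of the 34 genes (rows) in the 12 comparisons (columns), with red above 0, blue below 0, grey where a gene had too few reads to be tested and a dot at an unadjusted p below 0.05. The dots fall mainly on Cd9 and in the column for GKA averaged over genotypes, where 31 of 32 values lie above 0.

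To test the effect of GKA, mice with and without it were compared within each genotype. In PP 0 of 27 genes were called (0% of 10548 genes), and 0 had an unadjusted p below 0.05 (3.56% of all genes). In PL 0 of 26 were called (0% of 10399 genes), and 0 had an unadjusted p below 0.05 (3.18% of all genes). In LL 0 of 26 were called (0% of 10458 genes), and 1 had an unadjusted p below 0.05 (6.15% of all genes), which was Cd9 at 0.45 (SE 0.16, edgeR adjusted p 0.752). The medians over the genes tested were 0.23 in PP, 0.27 in PL and 0.09 in LL, with 23 of 27, 25 of 26 and 22 of 26 values above 0, whereas between 50.5% and 52.3% of all genes had values above 0. Macrophage genes varied together between livers, so that these counts are not of independent genes. The test of whether the GKA effect differed between LL and PP called 0 of 30 genes (0% of 11193 genes), and 1 had an unadjusted p below 0.05 (5.75% of all genes), again Cd9 at 0.51 (SE 0.23, adjusted p 0.867). DESeq2 called 0 members in these 4 comparisons, with 0, 0, 1 and 1 at an unadjusted p below 0.05.

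Averaged over the 3 genotypes, most macrophage genes had values above 0 with GKA, and none was called. Of 32 genes 0 were called by edgeR or DESeq2 (0% of 11477 genes), while 6 had an edgeR unadjusted p below 0.05 (5.28% of all genes) and 9 a DESeq2 one. All 6 values were above 0. Gpnmb was at 1.62 (SE 0.56, adjusted p 0.719) and Mmp12 at 0.90 (SE 0.42, adjusted p 0.90). Gpnmb had 0 reads in 19 livers and group medians of 0 to 6 reads. Its highest counts were 12, 5 and 27 reads in PP, PL and LL, and 72, 23 and 97 reads with GKA. It may thus have passed the filter on low counts through livers with GKA, so that its p cannot decide whether GKA raised it. Cd68, a lysosomal membrane protein of macrophages, was at 0.32 (SE 0.15), Ctss (cathepsin S) at 0.27 (SE 0.13), Cd9 at 0.22 (SE 0.10) and Ctsd at 0.15 (SE 0.06). The exons of Ctsd overlap those of a predicted protein-coding gene on the same strand. In total 31 of 32 values were above 0, with a median of 0.20 (0.11 without PL with GKA mouse 29), against 50.9% of all genes and a median of 0.00. The 32 genes varied together between livers of a group (median pairwise r of 0.485), so that their signs are not independent of each other. The exception was Cd163, the haemoglobin scavenger receptor, at -0.12 (SE 0.20). The 7 lipid-associated genes had a median of 0.43 and the 5 resident genes of 0.15.

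The higher values with GKA rested in part on single livers. Without PL with GKA mouse 29 the median for GKA in PL changed from 0.27 to -0.01, and without LL with GKA mouse 48 the median for GKA in LL changed from 0.09 to 0.01. Without these livers and PP with GKA mouse 14 together, the averaged contrast had 22 of 31 values above 0, a median of 0.05 and 1 gene at an unadjusted p below 0.05. Gpnmb was then at 0.50 and Mmp12 at 0.36, while Cd9 (0.20) and Ctsd (0.12) moved little. These 3 livers were picked for their high values, so that leaving them out lowers the contrast by construction. With PP mouse 7 kept, a liver without GKA that had high values too, the median was 0.14 and 1 gene had an unadjusted p below 0.05. In the averaged contrast the hepatocyte genes had a median of 0.01, the 13 sinusoidal endothelial genes tested of 0.07 with 11 above 0, and the 14 stellate cell and matrix genes tested of 0.14 with 9 above 0. Their part in the result was not tested.

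**Figure D3:**
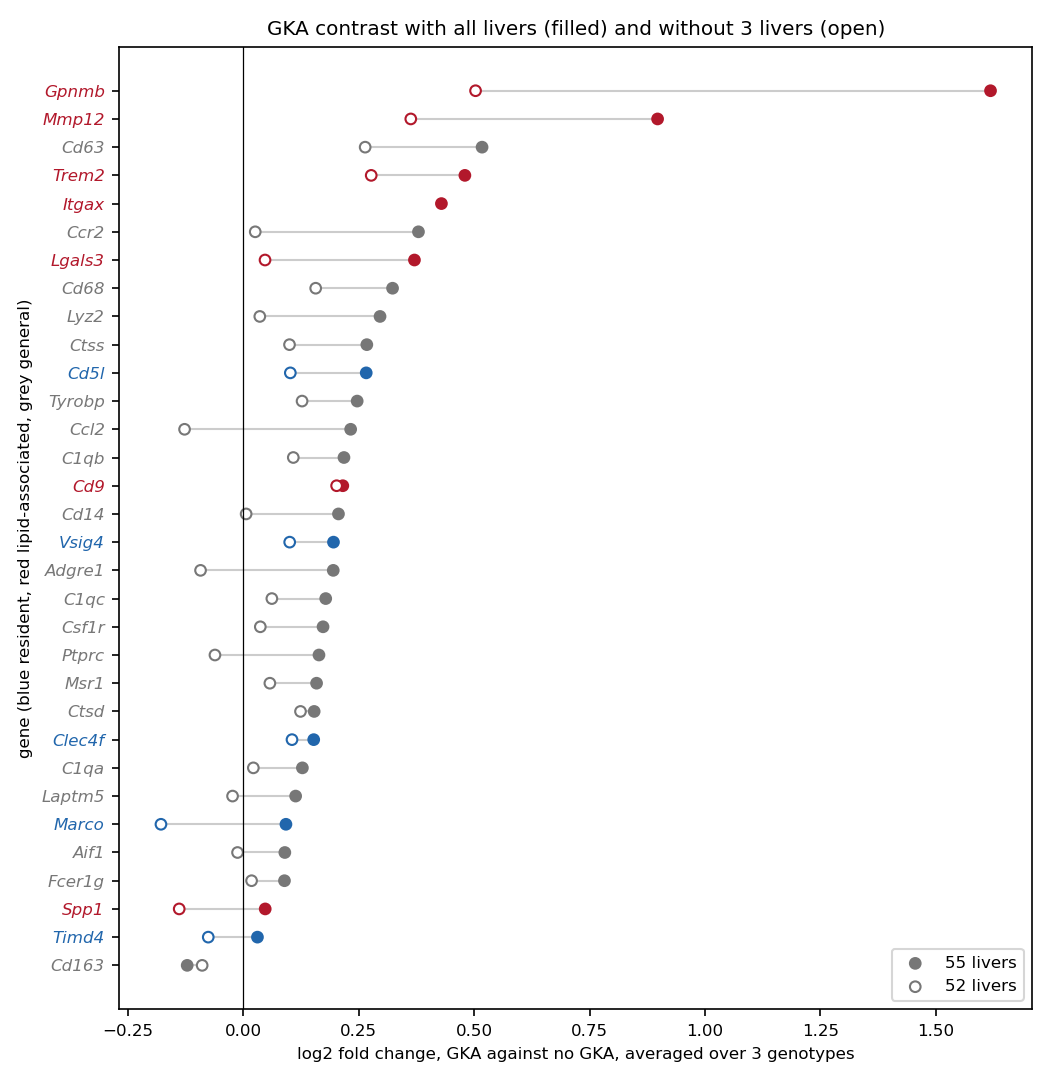
Log2 fold change of the 32 tested genes for GKA against no GKA, averaged over the 3 genotypes, with all 55 livers (filled) and without PL with GKA mouse 29, LL with GKA mouse 48 and PP with GKA mouse 14 (open), coloured blue for resident, red for lipid-associated and grey for general myeloid genes. Gpnmb moves from 1.62 to 0.50 and the median from 0.20 to 0.05, whereas Cd9 and Ctsd stay within 0.03 of their values. Itgax has no open point because it had too few reads to be tested in the 52 livers.

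At the median, the macrophage genes varied more between mice of a group than genes in general, without matching for read number. The SD of log2 CPM within groups had a median of 0.545 over the 32 genes tested and of 0.313 over 11477 genes. It was largest for Mmp12 (1.47), Gpnmb (1.37) and Marco (1.19), and smallest for Ctsd (0.227). Counting error is part of this SD and is large at few reads, as for Mmp12 and Gpnmb with medians of 11 and 2 reads per liver. Members with many reads lay at mixed percentiles among all genes tested: Ctsd at 23.6, Clec4f at 67.8, Cd5l at 81.4 and Lyz2 at 88.2. This variation was shared. After the group means had been removed, the pairwise correlation between genes over 55 livers had a median of 0.485 over 496 pairs and ranged from -0.257 to 0.926. All these correlations share libraries and scaling, and they are given as a description.

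The shared variation followed the subdivision of the list. Pairs of resident genes had a median correlation of 0.743 (10 pairs) and pairs of lipid-associated genes of 0.677 (21 pairs), whereas pairs across both lists had a median of 0.104 (35 pairs). The first principal component of the 32 genes held 51.8% of their variance, and all 32 weights on it had the same sign. The second held 19.7%, and separated all 7 lipid-associated genes, with positive weights, from all 5 resident genes, with negative weights. General genes fell on either side. Cd63, Ccr2, Ctsd and Ccl2 lay with the lipid-associated genes, and Cd163, Csf1r (the receptor for the macrophage growth factor CSF1) and Adgre1 (F4/80) with the resident genes. Gpnmb correlated with Cd63 (0.878), Mmp12 (0.869), Lgals3 (0.825), Spp1 (0.798) and Ccr2 (0.788). With the resident genes its r was 0.371 for Cd5l, 0.034 for Vsig4, 0.031 for Marco, 0.015 for Clec4f and -0.14 for Timd4. Pairs across both lists ranged from -0.233 to 0.559, the highest being Lgals3 with Cd5l. Cd5l correlated with Csf1r (0.924), Adgre1 (0.902), C1qa (0.90) and Lyz2 (0.88).

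**Figure D4:**
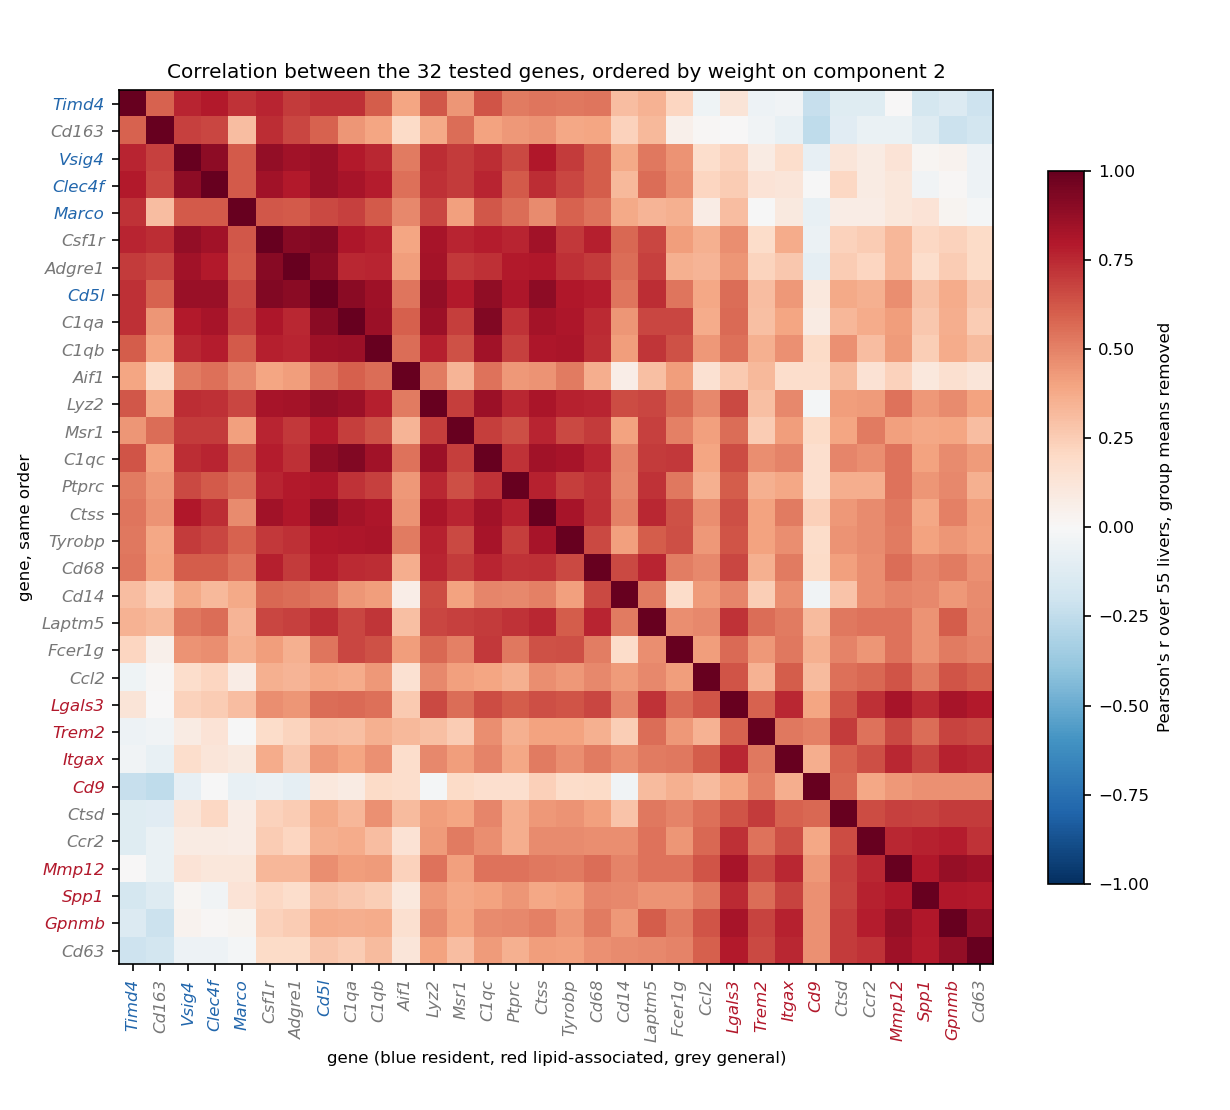
Pearson correlation between the 32 tested genes over 55 livers with group means removed (red positive, blue negative), ordered by weight on the second component, with gene names in blue for resident, red for lipid-associated and grey for general genes. A block from Timd4 to Tyrobp lies at the upper left and a block from Lgals3 to Cd63 at the lower right. Some pairs across the blocks also correlate, such as Lgals3 with Lyz2 (0.657) and C1qc (0.652). Pairs of a resident with a lipid-associated gene, which are only part of those across the blocks, have a median of 0.104.

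Of 12 pairs tested over 55 livers with group means removed, 10 had a permutation adjusted p below 0.05, in a two-sided test with 100000 shuffles within groups. Clec4f correlated with Vsig4 (r = 0.896, rho = 0.882), Cd5l (r = 0.862, rho = 0.861) and Timd4 (r = 0.793, rho = 0.75), and Adgre1 with Clec4f (r = 0.792, rho = 0.81). Each of these had a permutation p of 1e-05, the smallest that the shuffles can give, and an adjusted p of 2e-05. C1qa and C1qb had an r of 0.855 and a rho of 0.87 with the same p. Without the 2 livers farthest from the median, PL mouse 26 and PP with GKA mouse 13 for the Clec4f pairs, r was 0.876, 0.838 and 0.766 for Vsig4, Cd5l and Timd4. Without the 2 farthest for the other pairs, r was 0.769 for Adgre1 with Clec4f and 0.844 for C1qa with C1qb.

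Trem2 correlated with Gpnmb (r = 0.677, rho = 0.687, permutation adjusted p 3.4e-05), Itgax (r = 0.527, rho = 0.559, adjusted p 1e-04) and Cd9 (r = 0.505, rho = 0.453, adjusted p 0.00076). It also correlated with Col1a1, the main fibrillar collagen of stellate cells and fibroblasts (r = 0.631, rho = 0.646, permutation adjusted p 2e-05). For Trem2 with Clec4f r was 0.14 and rho 0.195 (permutation adjusted p 0.33), but on log2 TPM r was 0.309 (permutation adjusted p 0.038), so that the call depended on the scale. Without PP with GKA mouse 15 and LL mouse 39, the 2 farthest, r was 0.685 for Gpnmb, 0.598 for Itgax, 0.563 for Cd9, 0.654 for Col1a1 and 0.156 for Clec4f. In mice without and with GKA, r was 0.643 and 0.704 for Gpnmb, 0.599 and 0.688 for Col1a1, and 0.229 and 0.702 for Cd9, and the difference between arms was not tested. Ccr2 and Cx3cr1, which mark classical and patrolling monocytes, had an r of 0.459 and a rho of 0.43 (permutation adjusted p 0.00097), and 0.429 without the 2 farthest livers. Spp1 and the bile duct keratin Krt19 had an r of -0.127 and a rho of -0.168 (permutation adjusted p 0.33), and -0.148 without the 2 farthest. Group medians of Krt19 were only 0.126 to 0.236 CPM, near the floor, so that this pair cannot show whether Spp1 follows bile duct cells.

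Single livers marked the ends of both components. On the first, PL with GKA mouse 29 scored 3.00 SD units and LL with GKA mouse 48 2.37, and PL mouse 26 was lowest at -2.34. Of the 34 genes 20 had their highest value among the 55 livers in PL with GKA mouse 29, and 8 in LL with GKA mouse 48. The 2 livers differed in kind. Summed resident genes were 440.0 CPM in PL with GKA mouse 29 and 241.4 CPM in LL with GKA mouse 48, where the median of all livers was 169.1 CPM. Summed lipid-associated genes were 55.5 CPM and 139.4 CPM in the same livers, where the median was 30.8 CPM. PP mouse 8 had 113.3 CPM of resident and 121.7 CPM of lipid-associated genes, the latter mostly from Spp1. It was also the highest of the 9 PP livers compared for Gpnmb (1.94 CPM), Mmp12 (4.85 CPM), Trem2 (0.97 CPM), Lgals3 (8.89 CPM) and Itgax (1.29 CPM), but not for Cd9. Its score on the second component (2.24) was the highest of the 55 livers. At the other end of the second component, LL with GKA mouse 50 (-2.53), PP with GKA mouse 19 (-2.41) and LL mouse 41 (-2.09) were high for resident relative to lipid-associated genes.

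**Figure D5:**
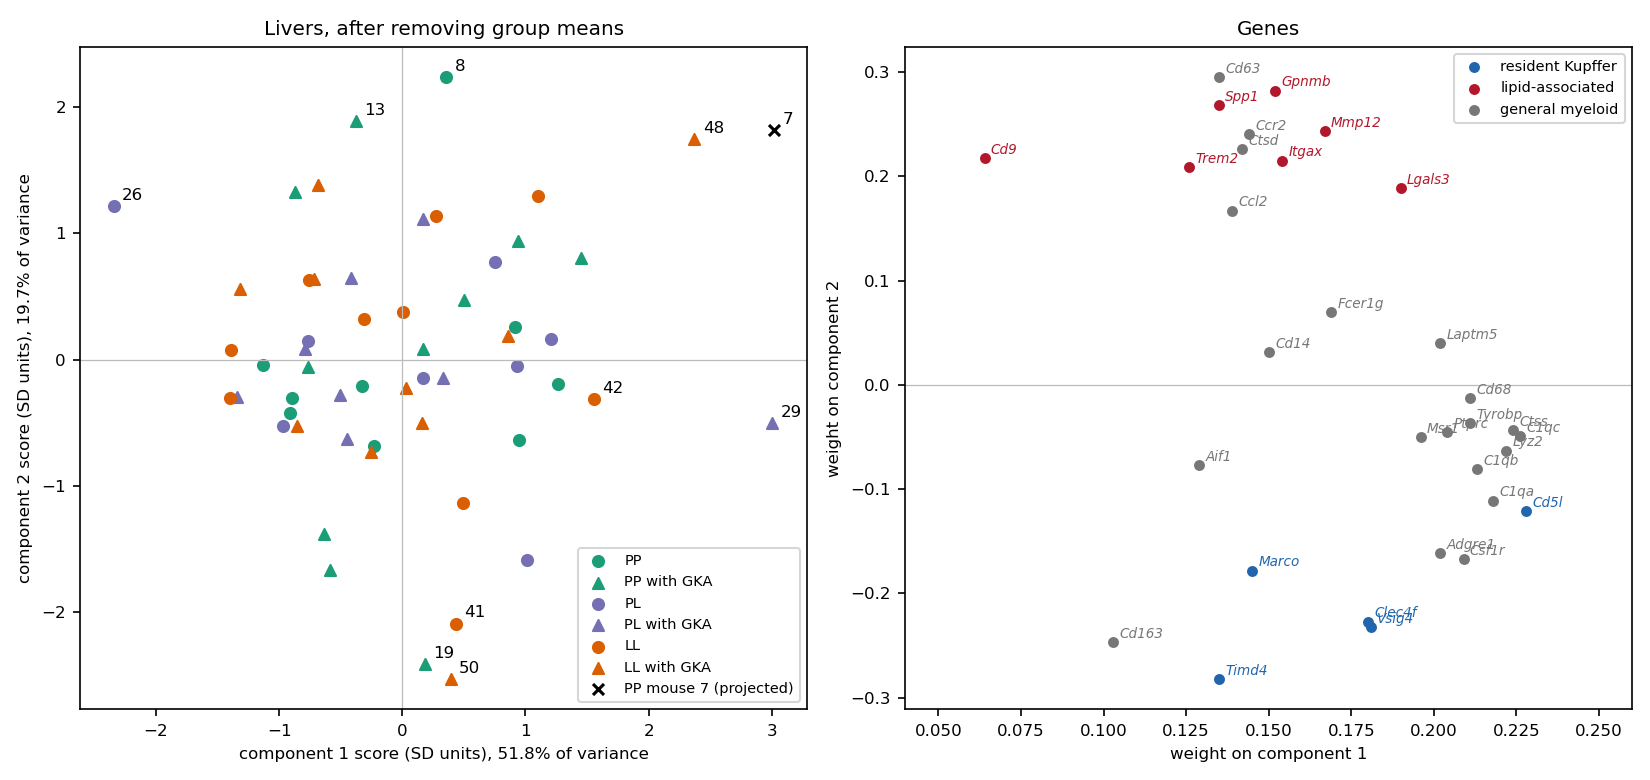
Left, scores of each liver on the first and second principal components of the 32 genes after removal of group means (SD units, circles without and triangles with GKA, numbers give the mouse, cross for PP mouse 7 placed on the same axes). Right, the weight of each gene, where all 32 are positive on the first component and resident (blue) and lipid-associated (red) genes lie on opposite sides of 0 on the second.

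Genes of other cell types moved with these livers. Sinusoidal endothelial genes summed to 310.1 CPM in PL with GKA mouse 29 and 315.7 CPM in LL with GKA mouse 48, the 2 highest sums of the 55 livers, where the median was 185.6 CPM. The hepatocyte genes summed to 94910 and 90420 CPM, ranks of 50 and 54 of 55, where the median was 115800 CPM. In LL with GKA mouse 48 the stellate cell and matrix genes (453.5 CPM, median 267.1 CPM) and the adipose tissue genes (66.1 CPM, median 11.4 CPM) were highest of all livers. Adipoq, Plin1, Retn and Lep, the defining adipose genes, had a median of 0 reads. B and plasma cell genes were at 42.6 CPM in PL with GKA mouse 29 and 13.1 CPM in LL with GKA mouse 48, where the median was 19.3 CPM. The part of these other cell types in the macrophage values was not tested.

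The C1q genes lie next to each other on chromosome 4 in the order C1qb (136606009 to 136613511), C1qc (136616466 to 136620376) and C1qa (136623223 to 136626161, GRCm39), all on the minus strand. They changed together from liver to liver, with r = 0.926 for C1qa with C1qc and 0.841 for C1qb with C1qc. The promoters of C1qb and C1qc are shown beside those of Clec4f and Gpnmb, which lie on opposite sides of the second component. The sequences run from 250 bases before to 50 bases after the start of the gene in RefSeq (GRCm38.p6, minus strand of chr4:136886151-136886450 for C1qb, chr4:136892865-136893164 for C1qc and chr6:83656067-83656366 for Clec4f, and plus strand of chr6:49036268-49036567 for Gpnmb). Capitals mark GAGGAA and GGAAGT on either strand (TTCCTC and ACTTCC on the other), short purine-rich motifs of the kind bound by ETS factors such as PU.1, the macrophage lineage factor.
C1qb: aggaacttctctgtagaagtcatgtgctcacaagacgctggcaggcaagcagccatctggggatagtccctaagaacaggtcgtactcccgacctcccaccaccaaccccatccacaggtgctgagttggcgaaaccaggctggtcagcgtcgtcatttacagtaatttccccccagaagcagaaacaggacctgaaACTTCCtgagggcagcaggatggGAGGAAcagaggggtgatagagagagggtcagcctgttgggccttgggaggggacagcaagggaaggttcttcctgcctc
C1qc: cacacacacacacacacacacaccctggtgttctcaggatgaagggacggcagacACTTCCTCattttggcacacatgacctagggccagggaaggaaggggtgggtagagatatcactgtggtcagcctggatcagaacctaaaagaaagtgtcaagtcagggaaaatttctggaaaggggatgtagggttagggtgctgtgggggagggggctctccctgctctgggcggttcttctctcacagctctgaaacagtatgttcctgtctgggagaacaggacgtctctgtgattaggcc
Clec4f: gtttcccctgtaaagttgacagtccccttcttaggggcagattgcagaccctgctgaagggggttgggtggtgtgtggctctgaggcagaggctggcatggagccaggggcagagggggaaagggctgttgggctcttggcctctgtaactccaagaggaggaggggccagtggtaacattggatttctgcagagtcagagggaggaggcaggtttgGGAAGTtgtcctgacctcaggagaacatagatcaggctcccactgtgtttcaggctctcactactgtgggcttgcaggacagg
Gpnmb: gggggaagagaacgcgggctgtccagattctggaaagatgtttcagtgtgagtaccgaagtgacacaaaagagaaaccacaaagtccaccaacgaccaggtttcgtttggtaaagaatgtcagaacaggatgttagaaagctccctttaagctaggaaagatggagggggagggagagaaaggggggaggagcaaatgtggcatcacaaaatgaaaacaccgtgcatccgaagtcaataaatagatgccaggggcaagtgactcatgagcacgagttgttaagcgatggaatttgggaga
Both motifs occurred in C1qb and in C1qc, and in C1qc they overlap by 4 bases, whereas Clec4f had GGAAGT alone and Gpnmb neither. RefSeq promoters were matched for 27 of the 34 genes, in 31 windows. GAGGAA was found in 48.4% of these windows and in 28.3% of all 32851 windows, and GGAAGT in 54.8% and 23.8%. A match of 6 letters is a description and says nothing on binding in these livers.

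Genes from 16 other lists (further macrophage genes, inflammation and other cell types) gave 1 call in the 12 comparisons. Cxcl1, a chemokine for neutrophils that hepatocytes also make, fell for LL against PP averaged over both arms, with a log2 fold change of -1.30 (SE 0.30, edgeR adjusted p 0.00591). It was between 1.43 and 54.0 CPM in PP and between 2.52 and 5.70 CPM in LL without GKA, and between 1.87 and 6.78 CPM in PP and 1.04 and 5.54 CPM in LL with GKA. The ranges overlapped in both arms, and the largest values were from PP livers without GKA. The medians of PP and LL were 8.57 and 3.65 CPM without GKA and 3.55 and 2.53 CPM with GKA, so that the averaged value rested mainly on the arm without GKA. Without GKA alone the value for LL against PP was -2.14 (SE 0.53, edgeR adjusted p 0.102), and GKA in PP was at -2.11 (SE 0.54, edgeR adjusted p 0.9997). The difference of the GKA effect between LL and PP was 1.68 (SE 0.63, edgeR unadjusted p 0.011, adjusted p 0.867). In the averaged contrast, where 1.71% of all genes were called and 16.1% had an unadjusted p below 0.05, 11 of the 25 inflammatory genes could be tested, and Tnf, Il6, Il10, Ccl3, Ccl4 and Nos2 had a median of 0 reads. Of 20 further Kupffer cell genes 18 were tested by edgeR with 0 called and 2 at an unadjusted p below 0.05, and the smallest adjusted p was 0.051, for Id3, a regulator of Kupffer cell identity, at -0.56 (SE 0.17). Of 21 further lipid-associated genes 18 were tested by edgeR with 0 called and 2 at an unadjusted p below 0.05, where Ctsz (cathepsin Z) had an adjusted p of 0.0487 at 0.26 (SE 0.08), below the fold threshold. None of the 25 tested Fc receptor, phagocytosis and lysosome genes was called by edgeR (0 of 25), the smallest adjusted p was 0.206, and 2 had an unadjusted p below 0.05.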

How the data were processed

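Liver RNA was sequenced from 56 mice, 1 library each. According to the study's methods the authors kept RNA of integrity above 6 and quantified transcripts with Salmon against the GENCODE M26 mouse transcripts (GRCm39), and the submitters' processing notes give Salmon 1.4.0. The deposited files hold, for 139225 transcripts, an estimated count that is not normalised. The authors' files also give TPM, scaled by effective length within each mouse. Transcript length and effective length are the other deposited columns.

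Estimated counts were summed per gene by identifier in GENCODE vM39 (98.8% of transcripts matched) and rounded. Total reads were between 5189852 and 8093368 per mouse, and intervals and tests cover the spread between mice only. CPM values use TMM scaling, and log2 CPM a prior count of 2. The edgeR 4.0.16 quasi-likelihood test (R 4.3.3) with filterByExpr was fitted on the groups compared, and on all 6 groups for the averaged contrasts. Positions are from vM39. Alternatives were DESeq2 1.42.0, RLE size factors, no filter, PP mouse 7 kept, a transcript length offset, protein-coding transcripts, 6 groups in 1 fit, each mouse left out and a covariate from 16 clock genes (57.6% of their variance), beside log2(TPM + 0.1) for correlations (SciPy 1.17.1). Leaving out selected mice, and single mice in the averaged contrasts, was chosen after seeing the data, with 100 refits in all. The script was tested on simulated data.

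The members and lists were chosen with earlier results of these data known. Named with values were members called in any comparison, up to 8 members of lowest p between LL and PP, the resident and lipid-associated genes, and called genes of other lists. The labels give no batch, cage or harvest date, and the study did not pair mice, so that no comparison within batches was possible. The closest pair of libraries in a group had a chi-square of 13.7 per gene, so that no libraries agreed within sampling noise. Other lists were tested with edgeR alone.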

Additional observations from a re-analysis of the deposited data

Results flagged for a closer look

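In 26 of the 34 genes with a median of at least 10 reads, each of the 6 groups was examined for a liver whose gap to its neighbour took up most of the group's range on the log2 CPM scale. Of 156 gene and group combinations 16 stood out, where chance gives about 1 in 20, and the genes are not independent of each other. PL with GKA mouse 29 was the highest of its group, far from the other 7, for 11 genes. Among resident genes it had 224.7 CPM of Cd5l (others at most 92.0 CPM), 12.1 CPM of Timd4 (others at most 4.50 CPM) and 41.2 CPM of Vsig4 (others at most 19.6 CPM). Among general genes it had 44.0 CPM of Adgre1, 16.2 CPM of Cd68, 78.5 CPM of Csf1r, 182.8 CPM of Lyz2, 65.4 CPM of C1qa, 79.2 CPM of C1qc and 52.8 CPM of Ctss. Lgals3 was the only lipid-associated gene among the 11, at 11.4 CPM (others at most 4.86 CPM).

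PL mouse 26 lay below the other PL livers for Clec4f (26.8 CPM, others at least 53.2 CPM) and Cd5l (25.8 CPM, others at least 54.7 CPM). PP mouse 8 was highest for Spp1 with 92.1 CPM (others at most 25.9 CPM), LL mouse 42 for Cd68 with 15.8 CPM (others at most 7.00 CPM), and PL with GKA mouse 35 was lowest for Cd163 with 2.24 CPM (others at least 4.79 CPM). No gene passed the adjusted threshold for a difference of the GKA effect between PP and LL.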

How the results depend on the processing

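The count of members called was 0 in all 12 comparisons under every alternative run (single mice were left out for the contrasts named next only), in which the smallest adjusted p of a member was 0.0582 (Cd9, LL against PP averaged, protein-coding transcripts only). The median over members was not stable in sign: the clock covariate turned it for LL against PP (0.23), PL against PP (0.10), LL against PL (-0.01) and LL against PP averaged (0.01). Leaving out single mice gave medians of -0.11 to 0.04 (LL against PP), -0.26 to -0.05 (LL against PP with GKA), -0.13 to -0.02 (LL against PP averaged) and 0.11 to 0.24 (GKA averaged, lowest without PL with GKA mouse 29). Cd9 for LL against PP without GKA was between -0.61 and -0.43 on leaving out mice. With the clock covariate, however, 0 members, Cd9 included, had an edgeR unadjusted p below 0.05 for LL against PP without GKA or averaged. With the length offset, 0 members had such a p with a value below 0 in the averaged contrast. Keeping PP mouse 7 gave medians of -0.18 (LL against PP), -0.20 (PL against PP) and 0.08 (interaction).
Some signs turned between settings. No member was called in any fit, so that these were all uncalled genes, and the cause was not tested. For LL against PP averaged, the clock covariate gave Cd5l 0.015, Clec4f 0.0008, Timd4 0.0061, Marco 0.23, Vsig4 0.16, Gpnmb -0.22 and Lgals3 -0.025. PP mouse 7 kept gave Gpnmb -0.89, Mmp12 -0.42 and Lgals3 -0.10, and the transcript length offset Gpnmb -0.13. Leaving out mice moved Marco from -0.24 to 0.23, Gpnmb from -0.58 to 0.45, Spp1 from -0.34 to 0.17 and Lgals3 from -0.11 to 0.19. For GKA averaged, the length offset gave Marco -0.34 and Spp1 -0.10, and leaving out the 3 livers Timd4 -0.0754, Marco -0.18 and Spp1 -0.14. Leaving out single mice moved Timd4 from -0.10 to 0.10, Marco from -0.17 to 0.36 and Spp1 from -0.10 to 0.24. On log2 TPM, Trem2 with Clec4f had r = 0.309 (permutation adjusted p 0.038) and Spp1 with Krt19 r = 0.054.
No paired analysis was possible because each mouse has its own number and the labels pair none. Low reads limit Trem2, Gpnmb, Itgax, Ccr2, Ccl2 and Cd14, which most comparisons of 2 groups could not test.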

Other observations

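PP mouse 7, which entered no comparison, had the highest level of 9 of the 34 genes among all 56 livers and lay above all 9 other PP livers for 26 of them. It had 15.9 CPM of Gpnmb, 30.1 CPM of Mmp12, 5.75 CPM of Trem2, 4.75 CPM of Itgax and 17.0 CPM of Lgals3, which is 33.2, 18.3, 12.3, 9.05 and 4.05 times the mean of the 9 other PP livers. Resident genes were closer to those livers, at 1.28 times their mean for Clec4f, 1.02 for Timd4 and 2.23 for Cd5l. Its scores of 3.02 and 1.82 on the first and second components placed it nearest to LL with GKA mouse 48 (2.37 and 1.75). Stellate cell and matrix genes summed to 381.7 CPM in PP mouse 7, where the median of the 55 livers was 267.1 CPM, and hepatocyte genes to 94350 CPM, where the median was 115800 CPM.

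Of the 393.3 estimated reads of Trem2 over 56 livers, 23.8% were assigned to retained-intron transcripts and 71.0% to protein-coding ones, while 99.1% of the 571 reads of Gpnmb were assigned to protein-coding transcripts. Protein-coding transcripts held 59.5% of the reads of Cd9, 56.6% of those of Mmp12 and 78.4% of those of Clec4f.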
